A study of Homo sapiens with 32 samples.

Results

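The genes described are 10 feedback regulators and output genes of the MAPK pathway: the phosphatases DUSP4, DUSP5 and DUSP6, the Sprouty genes SPRY1, SPRY2 and SPRY4, the Sprouty-related genes SPRED1 and SPRED2, and the transcription factors ETV5 and EGR1. They were taken by name, 10 of the 19775 genes that had a probe set with a single gene symbol. Together they had 25 such probe sets. For each gene the probe set with the highest mean log2(signal + 16) over the 32 arrays was used. All 10 genes were among the 15455 that passed the filter on low values, which asked for a log2 level above 6.73 in at least 3 units; that level is the median signal of the whole data set.

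The series measured total RNA of 32 human cell lines of acute myeloid leukaemia (AML), all established lines, on Affymetrix arrays, 1 array per line, with no treatment. The submitters set out to link expression with sensitivity to PIM kinase inhibitors; sensitivity is not analysed here. HL-60 and PLB-985, and likewise KG-1 and KG-1A, are sublines of one another and were averaged for every comparison, which left 30 units. With 1 array per line, each p-value measures the spread between lines, and no line had a replicate.

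Of the lines, 8 were taken as RAS-mutant lines from general knowledge of these lines: HL-60, PLB-985, NB-4, THP-1, OCI-AML3, SKM-1, ML-2 and NOMO-1. They are called RAS-listed here and form 7 units, against 23 units of the 24 other lines. The labels give no mutation, so the other lines are not shown to lack one. Among them, PL-21 was also marked as a RAS-mutant line from general knowledge, but it was kept with the others. Some of the other lines are known for an activated tyrosine kinase (MV4-11, MOLM-13, KASUMI-1, HEL and others). A cytokine was added to the medium of 4 lines: IL-3 (5 ng/ml, in RPMI) for F-36P, and GM-CSF or SCF (in alpha-MEM) for the lines OCI-AML3, OCI-AML2 and OCI-AML5. Media without a named cytokine were RPMI for 21 lines and IMDM for SH-2, SHI-1, OCI-M2 and OCI-M1. For 3 lines, MV4-11, MOLM-16 and MOLM-13, no medium was stated.

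In the MAPK pathway, growth factor and cytokine receptors load RAS with GTP, RAS recruits RAF, and RAF activates MEK and then ERK. Active ERK turns on transcription of its own brakes: DUSP phosphatases remove the activating phosphates from ERK, and Sprouty and SPRED proteins act further up, at the level of RAS and RAF. In myeloid leukaemia the pathway is often driven by mutated RAS, FLT3 or KIT, and the messenger RNAs of these genes are widely read as signs of ERK output.

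The promoters of these genes differ in the short motifs they hold. RefSeq promoter windows (GRCh38.p14) of the 250 bases before a gene's start were searched on both strands for the CArG box (bound by serum response factor), the ETS motif CCGGAA, the AP-1 motif TGANTCA, the CRE motif TGACGTCA and the EGR motif GCGGGGGCG, and no matches overlapped in the windows shown. For 7 of the 10 genes 11 windows were matched. Of all 35116 windows, 1.16% held a CArG box, 14.5% the ETS motif, 6.57% the AP-1 motif, 1.65% the CRE motif and 4.72% the EGR motif. EGR1 is shown because it held 2 CArG boxes, at bases -105 to -96 and -83 to -74 from the start. SPRY2 is shown (its most upstream window) because it held 1 ETS motif at bases -142 to -137 and 1 EGR motif at -41 to -33. The other SPRY2 windows held none of the 5 motifs. DUSP6 is shown as the gene with the widest range of levels, with no match. Capitals mark the matches. A match is a description of the letters and not a shown binding site. EGR1 is read on the plus strand at chr5:138465229-138465478, SPRY2 on the minus strand at chr13:80341127-80341376 and DUSP6 on the minus strand at chr12:89352502-89352751, each 5′ to 3′:
EGR1: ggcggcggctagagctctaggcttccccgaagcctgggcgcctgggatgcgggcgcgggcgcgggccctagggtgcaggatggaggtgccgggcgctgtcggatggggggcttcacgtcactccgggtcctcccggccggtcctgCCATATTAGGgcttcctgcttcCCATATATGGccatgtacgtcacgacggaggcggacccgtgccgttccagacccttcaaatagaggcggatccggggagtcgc
SPRY2: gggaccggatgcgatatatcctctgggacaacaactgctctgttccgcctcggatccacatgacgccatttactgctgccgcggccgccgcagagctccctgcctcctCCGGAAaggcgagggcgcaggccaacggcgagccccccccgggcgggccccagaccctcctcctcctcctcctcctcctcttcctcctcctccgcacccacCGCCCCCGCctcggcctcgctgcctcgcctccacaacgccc
DUSP6: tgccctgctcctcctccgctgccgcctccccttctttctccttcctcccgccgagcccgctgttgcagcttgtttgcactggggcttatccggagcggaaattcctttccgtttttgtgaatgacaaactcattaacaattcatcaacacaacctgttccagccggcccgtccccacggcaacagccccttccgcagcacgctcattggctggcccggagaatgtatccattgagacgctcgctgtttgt
One of the SPRY1 windows also held 1 ETS and 1 EGR match, and the windows of SPRY4, SPRED1 and SPRED2 held none of the 5 motifs.

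Properties of the arrays bear on the genes. Median signal was 68.2 to 115.4 on 30 arrays, 198.4 on NOMO-1 and 243.3 on GF-D8, so genes of low level may read higher on those 2. GAPDH control probe sets read the 3' and the 5' end of that transcript, and their 3'/5' ratio is higher in degraded RNA. It was above 2 on 5 of the 8 RAS-listed arrays (2.42 to 7.08) and on 3 of the 24 other arrays (2.61 to 6.66), and 0.871 to 1.24 on the remaining ones. MYB and PTPRC, markers of blood progenitors and of leukocytes, lay above the filter level in 30 of 30 units, SPI1 in 27 and ANPEP in 26.

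Expression of the feedback genes differed widely between lines. The median SD over 30 units was 1.35 on the log2 scale for the 10 genes, against 0.80 for all tested genes. A larger SD was found in 6.12% of tested genes for EGR1, 6.65% for DUSP4 and 6.87% for DUSP6, but in 67.8% for SPRED2, the steadiest of the 10. Each gene's level is given on its own probe set, so levels are compared between lines and not between genes. In bulk RNA, fewer cells of a type and less RNA per cell cannot be told apart.

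**Figure D1:**
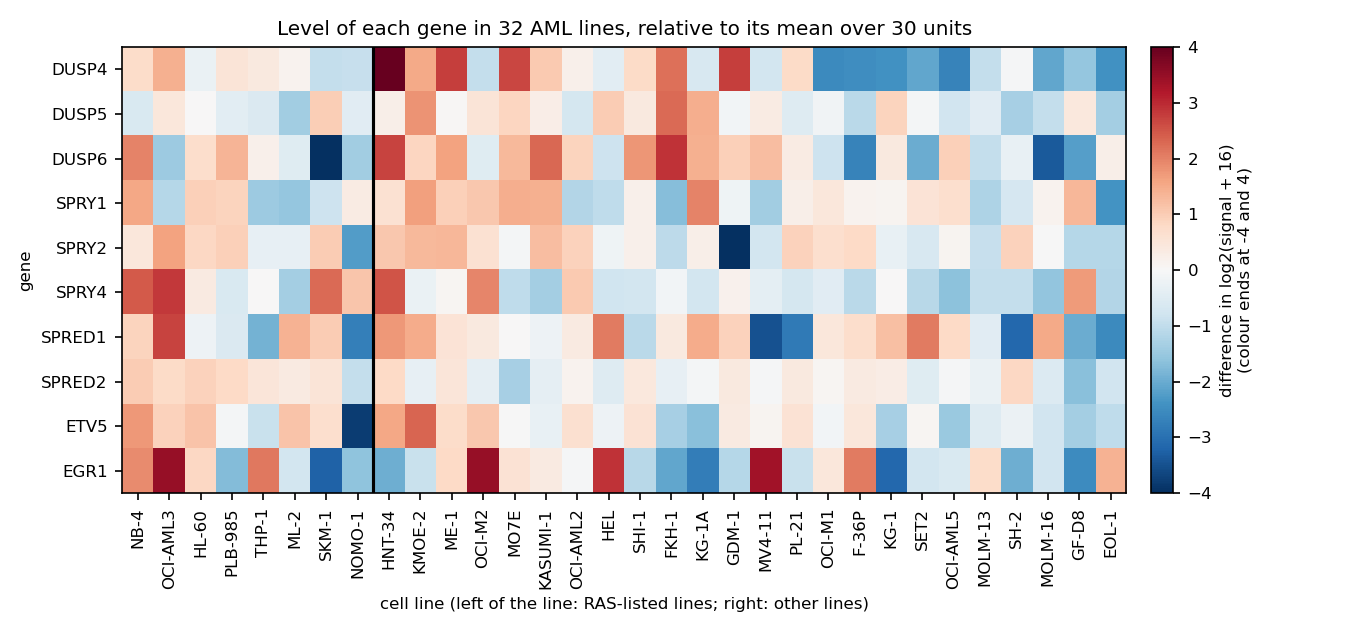
Heat map of the log2(signal + 16) level of each gene (rows) in 32 lines (columns) minus its mean over 30 units, in log2 units, with the 8 RAS-listed lines left of the vertical line and both sides ordered by the mean over the genes. SKM-1 is the darkest blue in DUSP6 (6.18) and GDM-1 in SPRY2 (4.14), while HNT-34 is the darkest red in DUSP4 (12).

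Of the phosphatases, DUSP6, which removes phosphates from ERK in the cytoplasm, had the widest range. Its log2 level ran from 6.18 in SKM-1 to 14.22 in FKH-1, with a median of 11.70, a 263.4-fold span on the signal + 16 scale. MOLM-16 was the next lowest at 7.97 and HNT-34 the next highest at 14.03, so SKM-1 lay apart at the low end. DUSP6 had 3 probe sets, and SKM-1 was the lowest line on each, at 6.18, 5.72 and 4.29. The other 2 probe sets correlated with the used one at r = 0.98 and 0.97 over 30 units.

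**Figure D2:**
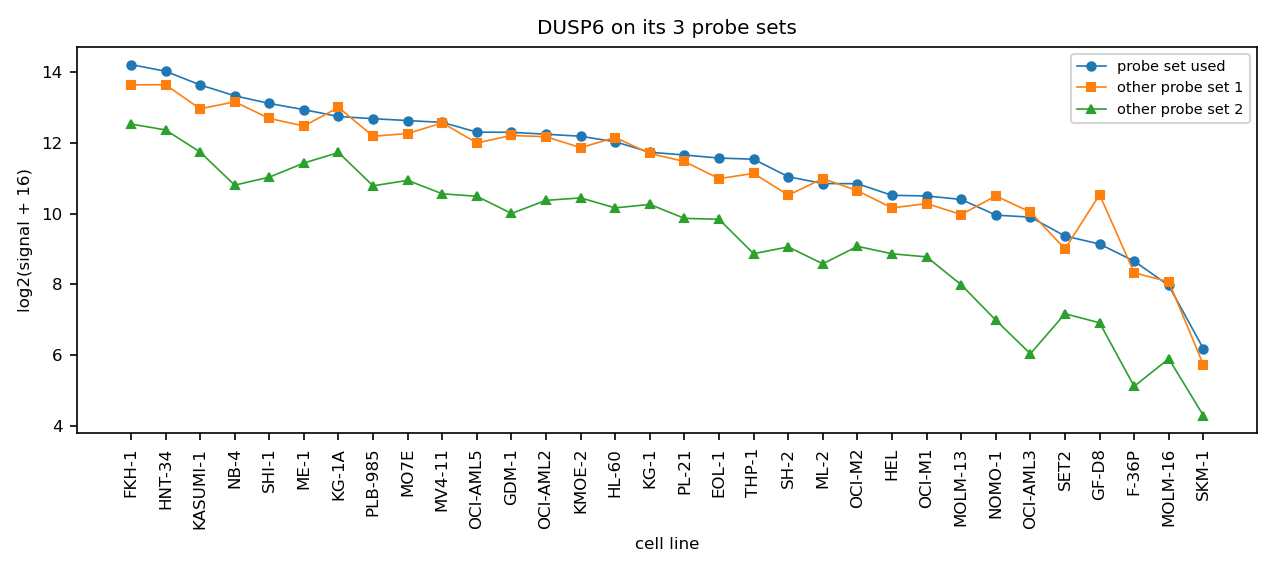
DUSP6 levels, as log2(signal + 16), on its 3 probe sets (circles, the probe set used; squares and triangles, the others) in 32 lines ordered by the used probe set. SKM-1 is at the far right and lowest on all 3, at 6.18, 5.72 and 4.29.

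DUSP4, an inducible phosphatase found in the nucleus, was above the filter level on 17 of 32 arrays. It ranged from 4.44 in OCI-AML5 to 12 in HNT-34, a 188.6-fold span, with GDM-1 next to the top at 9.88. Its other probe sets followed the used one at r = 0.91 and 0.90, and HNT-34 was highest on all 3. DUSP5, a nuclear phosphatase specific for ERK, was above the filter level on all 32 arrays and ranged from 7.10 in ML-2 to 10.74 in FKH-1. FKH-1 thus held the highest level of both DUSP5 and DUSP6. DUSP4 and DUSP6 had the highest correlation of the 45 pairs of genes, r = 0.60 over 30 units.

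Sprouty proteins are adaptors that dampen receptor signalling to RAS and RAF. SPRY1 ranged from 6.15 in EOL-1 to 10.50 in KG-1A, with a median of 8.76. SPRY2 lay between 7.19 and 11.02 on 31 arrays, lowest in NOMO-1 and highest in OCI-AML3, and was 4.14 in GDM-1 alone. SPRY2 had a single probe set, so this low value, a signal of 1.6, could not be compared with another. The GDM-1 array also had a GAPDH ratio of 6.66. SPRY2 correlated with the log2 GAPDH ratio at r = -0.57 over 30 units, -0.41 over 29 without GDM-1 and -0.50 over the 22 units of ratio at most 2. The part of RNA quality in the SPRY2 levels was not tested. For the other 9 genes this correlation was -0.28 to 0.20.

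SPRY4 was above the filter level on 21 of 32 arrays and ranged from 5.83 in OCI-AML5 to 10.31 in OCI-AML3. HNT-34 (10.01), NB-4 (9.95), SKM-1 (9.75) and OCI-M2 (9.44) followed the highest line. SPRY4 had a single probe set, so its pattern could not be compared with another.

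SPRED proteins bring the RAS inhibitor neurofibromin to the membrane. SPRED1 was above the filter level on 24 of 32 arrays and ranged from 4.10 in MV4-11 to 10.28 in OCI-AML3, a 72.7-fold span. SH-2 (4.44), PL-21 (4.73), NOMO-1 (4.83) and EOL-1 (5.02) were the other lines of lowest level. The MV4-11 signal before the log was 1.1. SPRED1 had 3 probe sets, and the other 2 correlated with the used one at r = 0.84 and 0.53. On these, SH-2 and PL-21 were lowest and KMOE-2 and HEL highest. They were above the filter level on 15 and 2 arrays. SPRED2 was above the filter level on every array and ranged only from 8.15 in GF-D8 to 10.85 in NB-4. Its other 2 probe sets were above the filter level on 0 of 32 arrays, and they correlated with the used one at r = -0.37 and -0.49.

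ETV5, an ETS transcription factor that ERK signalling induces, ranged from 5.55 in NOMO-1 to 11.68 in KMOE-2. The next lowest line was KG-1A at 7.69, so NOMO-1 lay apart. KMOE-2 was highest on 4 of the 5 ETV5 probe sets, and NOMO-1 was lowest only on the used one, the others having KG-1A or MOLM-13 lowest. EGR1, a zinc finger factor among the first genes transcribed after ERK activation, ranged from 6.26 in SKM-1 to 12.98 in OCI-AML3. OCI-M2 (12.97), MV4-11 (12.85) and HEL (12.37) were close to the top, and KG-1 (6.34) and KG-1A (6.73) were close to the bottom. On the other 2 EGR1 probe sets MV4-11 (10.55) and OCI-M2 (13.01) were highest and FKH-1 (6.11) and KG-1A (5.60) lowest, while SKM-1 read 6.38 and 6.51. The neighbours at either end of EGR1 differ by less than the sublines HL-60 and PLB-985 did, 2.58.

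The sublines show how far arrays of closely related cells lay apart. HL-60 read 10.33 and PLB-985 7.75 in EGR1, and 10.51 and 9.28 in ETV5. The GAPDH ratio was 7.08 on the HL-60 array and 0.93 on the PLB-985 array. The part of RNA quality in their differences was not tested. KG-1A was above KG-1 by 1.88 in SPRY1, 1.79 in DUSP4 and 1.01 in DUSP6. The median difference over the 10 genes was 0.552 for each pair, against 0.579 and 0.469 over all tested genes.

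The genes did not rank the lines alike. OCI-AML3 ranked first of 30 units in SPRY2, SPRY4, SPRED1 and EGR1 but 25 in DUSP6. SKM-1 was last in DUSP6 and EGR1 but 4 in SPRY4 and 5 in DUSP5. NB-4 ranked 1 in SPRED2, 2 in ETV5 and SPRY1, 3 in SPRY4 and 4 in DUSP6. The mean over the 10 genes of the difference from each gene's mean was highest in HNT-34 (1.41), NB-4 (1.21) and OCI-AML3 (1.16). It was lowest in NOMO-1 (-1.27) and EOL-1 (-1.11).

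Over 30 units, the median r of the 45 pairs was 0.16, with 38 pairs above 0, against 0.01 over all pairs of tested genes. After DUSP4 with DUSP6, the highest values were SPRED2 with ETV5 (r = 0.52) and SPRY2 with ETV5 (r = 0.45). The lowest was DUSP5 with SPRED2 (r = -0.22). Without NOMO-1 and GF-D8, the arrays of high median signal, r was 0.58 for DUSP4 with DUSP6, 0.38 for SPRED2 with ETV5 and 0.32 for SPRY2 with ETV5. SPRY4 with ETV5 moved from 0.25 to 0.54 and SPRY4 with SPRED2 from 0.24 to 0.50. All pairs share the same arrays, with the differences in signal and RNA quality given above, and these values are descriptions.

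**Figure D3:**
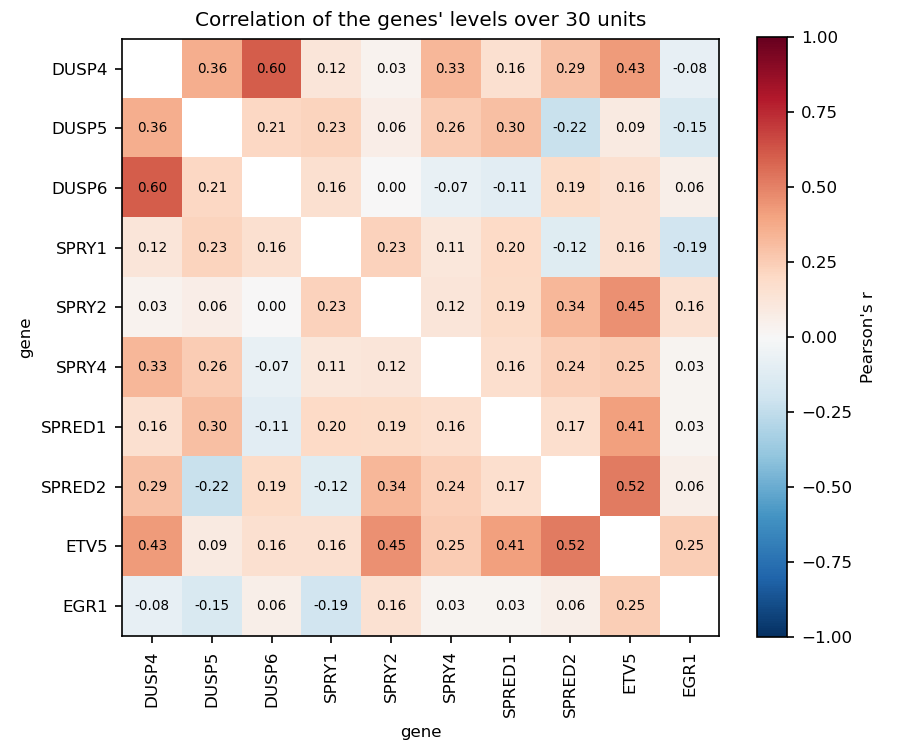
Pearson's r between the log2 levels of each pair of the 10 genes over 30 units, printed in each cell and coloured from blue (-1) to red (1). DUSP4 with DUSP6 is the strongest at 0.60, and EGR1 lies between -0.19 and 0.25 with every other gene.

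For each gene the 3 tested genes of most similar level over 30 units were named. They were MAML2 (r = 0.72), FAR2-AS1 (0.72) and PIP4K2B (0.72) for DUSP4, DOCK1 (0.65), KALRN (0.65) and DOK4 (0.64) for DUSP5, and GPR135 (0.73), UNC119B (0.68) and FIRRE (0.66) for DUSP6. For SPRY1 they were IL2RG (0.69), PTPN13 (0.68) and IFIT1 (0.67), for SPRY2 SLC4A7 (0.76), C4orf46 (0.70) and TMEM185B (0.70), and for SPRY4 ELFN1 (0.72), SOWAHC (0.69) and FUOM (0.66). PRKD3 (0.67), AIDA (0.65) and LRP6 (0.65) were most like SPRED1, and UBE2A (0.77), PPP3CA (0.77) and ACAP2 (0.75) most like SPRED2. ETV5 was closest to NUFIP2 (0.73), PPP3CA (0.72) and SIKE1 (0.72), and EGR1 to CCT8 (0.69), CCDC25 (0.66) and PCM1 (0.66). No gene among the 10 stood in another's list. These maxima over 15454 genes are not high for such a search: the highest r was 0.65 to 0.77 for the 10 genes, in all 10 cases below 0.78, the median highest r of a tested gene. For ETV5 they rest in part on NOMO-1 and GF-D8, without which NUFIP2 fell to r = 0.48.

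The RAS-listed lines were then set against the other lines, to ask whether lines with a known RAS mutation carry higher levels of these ERK-induced genes. None of the 10 genes passed the test (limma, two-sided, Benjamini-Hochberg adjusted p of 0.05 over 15455 genes). Across all tested genes 5 passed, which is 0.0324%, 2 higher and 3 lower; this count was 2 without ML-2, 3 without NOMO-1, 11 without SKM-1 and 16 without OCI-AML3. At an unadjusted p of 0.05, 2 of the 10 were higher in the RAS-listed lines, SPRY4 and SPRED2, and none was lower, while 7.65% of all tested genes were higher at that level. The median difference over the 10 genes was 0.18 on the log2 scale, against 0.03 over all tested genes, with 7 positive and 3 negative.

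SPRY4 had the largest difference. Its level was 10.31 in OCI-AML3, 9.95 in NB-4, 9.75 in SKM-1, 8.57 in NOMO-1, 7.83 in HL-60, 7.50 in THP-1, 6.87 in PLB-985 and 6.11 in ML-2. The other lines ran from 5.83 to 10.01 with a median of 6.75, so the groups overlapped, with 6 of 7 RAS-listed units above the median of the others. The mean was 8.51 ± 1.58 (SD, n = 7) in RAS-listed units and 7.16 ± 1.13 (SD, n = 23) in the others, a difference of 1.34 ± 0.52 (SE). Its interval of 2 standard errors was 0.31 to 2.38, with p = 0.0142 and an adjusted p of 0.248 by limma.

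SPRED2 read 10.85 in NB-4, 10.74 in HL-60, 10.64 in PLB-985, 10.61 in OCI-AML3, 10.36 in SKM-1, 10.33 in THP-1, 10.18 in ML-2 and 8.89 in NOMO-1. Apart from NOMO-1, these lines lay close together near the upper end of the other lines, which ran from 8.15 to 10.67 with a median of 9.77. The difference was 0.57 ± 0.27 (SE), with p = 0.044 and an adjusted p of 0.354 by limma. As the mean over its 3 probe sets, of which the other 2 were below the filter level, the difference was 0.15.

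DUSP6 went the other way in its mean. Its level was 13.33 in NB-4, 12.69 in PLB-985, 12.03 in HL-60, 11.54 in THP-1, 10.85 in ML-2, 9.96 in NOMO-1, 9.90 in OCI-AML3 and 6.18 in SKM-1. The other lines ran from 7.97 to 14.22 with a median of 11.96, and only 2 of 7 RAS-listed units were above the median of the other units. The difference was -0.98 ± 0.75 (SE, adjusted p = 0.614 by limma), and its interval of 2 standard errors ran from -2.48 to 0.52. It was -0.25 without SKM-1 and -2.13 among arrays of GAPDH ratio at most 2, where 3 RAS-listed lines remain.

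EGR1 was both highest and lowest of all 32 lines in RAS-listed lines. It read 12.98 in OCI-AML3, 11.61 in THP-1, 11.38 in NB-4, 10.33 in HL-60, 8.76 in ML-2, 7.89 in NOMO-1, 7.75 in PLB-985 and 6.26 in SKM-1. The other lines ran from 6.34 to 12.97, and the difference was 0.28 ± 0.79 (SE, adjusted p = 0.92 by limma).

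For the other 6 genes the difference was -0.41 (SPRY1) to 0.21 (SPRY2), with adjusted p of 0.754 to 0.977 by limma. SPRY2, the gene that followed the GAPDH ratio most closely, moved with that ratio. Its difference was 1.45 ± 0.48 (SE, adjusted p = 0.535 by limma) with the log2 ratio as a covariate. That was above the 1.38 of SPRY4 in the same fit. Among arrays of ratio at most 2 the SPRY2 difference was 0.88. The covariate fit held GDM-1 (SPRY2 4.14, ratio 6.66), which the arrays of ratio at most 2 leave out. The part of GDM-1 in the difference was not tested. DUSP4 differed in spread more than in mean: the RAS-listed lines lay between 6.17 and 8.52 and the others between 4.44 and 12, a difference in spread that was not tested. SPRED1 ran from 4.83 to 10.28 in RAS-listed lines and from 4.10 to 9.67 in the others. ETV5 read 11.11 in NB-4 and 5.55 in NOMO-1, so both extremes of the RAS-listed lines were far from their mean of 9.40. The intervals of these genes are wide. For DUSP4, for example, a difference of 2 standard errors runs from -1.39 to 1.73, and equal levels are not shown.

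**Figure D4:**
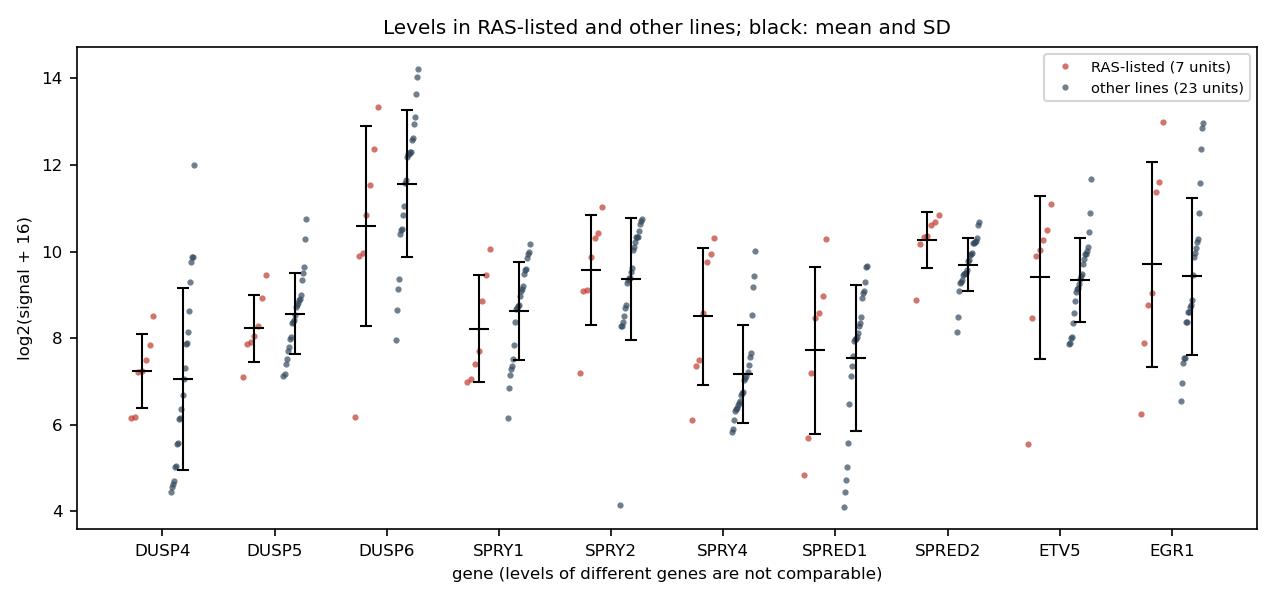
Level of each gene, as log2(signal + 16), in 7 RAS-listed units (red) and 23 other units (dark grey), 1 point per unit, with the mean and SD of each group in black. The groups overlap for every gene, and the means lie farthest apart for SPRY4, at 8.51 and 7.16.

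Single lines carried much of the balance over the 10 genes. The median difference was 0.59 without NOMO-1 and -0.17 without OCI-AML3. It was -0.09 when lines taken to have an activated tyrosine kinase were left out of the others. These were EOL-1, MOLM-13, MV4-11, KASUMI-1, KG-1, KG-1A, PL-21, HEL and SET2. HNT-34, the unit of highest mean over the 10 genes, stayed in, and the list may not be complete. Markers of cell type also moved with the grouping. The mean level of 6 granulocyte genes was 10.83 to 13.66 (median 12.41) in RAS-listed units and 5.41 to 13.67 (median 8.69) in the others, with 5 to 6 and 0 to 6 of them above the filter level. The mean of 9 monocyte genes was 7.10 to 11.28 (median 9.23) against 5.85 to 9.56 (median 7.18). For 5 erythroid genes it was 6.55 to 8.45 (median 7.13) against 6.21 to 11.82 (median 8.33), and for 3 megakaryocyte genes 5.71 to 8.0 (median 6.57) against 5.60 to 11.13 (median 7.98). The part of these markers in the differences was not tested, nor was that of the RNA quality given above. Among arrays of GAPDH ratio at most 2, the SPRY4 difference was 1.91 and that of SPRED2 0.78. Only PLB-985, SKM-1 and OCI-AML3 remain there of the RAS-listed lines. Over every setting tried for this comparison, the lowest adjusted p of the 10 genes was 0.121 by limma, for SPRED2 without NOMO-1 and GF-D8.

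The rest of the pathway was followed in 4 lists. Of 13 genes measured around RAS and its exchange factors, 8 of the kinase cascade, 11 other MAPK phosphatases and relatives, and 15 tested immediate early and ERK output genes, 0 passed in either direction in the RAS comparison by limma, against 5 of all 15455 genes. At an unadjusted p of 0.05 there were 6 of 13, 1 of 8, 1 of 11 and 0 of 15 genes of these lists, against 2077 of all tested genes (13.4%). The smallest p belonged to the scaffold KSR1, with a difference of -1.42 ± 0.38 (SE, adjusted p = 0.127). It was followed by HRAS with 0.78 ± 0.25 (adjusted p = 0.172), DUSP1, a nuclear phosphatase of broad range, with -1.35 ± 0.43 (adjusted p = 0.176), and RASGRP2, a RAP1 exchange factor, with 1.03 ± 0.40 (adjusted p = 0.256). RPS6KA3 (-0.59), DUSP2 (0.97), JUN (1.05) and IER2 (-0.31) were the other named genes of these lists, with adjusted p of 0.376 to 0.611 by limma. The 5 genes that passed in all were KLHL6 (-2.65), F2R (-3.54), PIP4K2A (-1.65), ZMYND19 (1.28) and BARX1 (2.16), named after their values were seen.

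Cytokines signal through RAS and ERK, and the growth medium was the only condition in the labels. The 4 lines grown with a cytokine were compared with the 23 units whose medium names none, and OCI-AML3 is in both this group and the RAS-listed lines. None of the 10 genes passed, nor did any of the 15455 tested (0.0%), while 878 (5.68%) were at an unadjusted p of 0.05 by limma. EGR1 had the largest difference. It read 12.98 in OCI-AML3, 11.58 in F-36P, 9.45 in OCI-AML2 and 8.88 in OCI-AML5, against 6.26 to 12.97 (median 8.76) in units without a cytokine. All 4 lines thus lay above that median, OCI-AML3 just above the highest unit without a cytokine and the other lines within their range. The difference was 1.59 ± 0.94 (SE, adjusted p = 0.915 by limma). Without OCI-AML3 it was 0.84, and DUSP4 then had the largest difference, -1.97.

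SPRED1 read 10.28 in OCI-AML3, 8.36 in OCI-AML5, 8.28 in F-36P and 7.93 in OCI-AML2, against 4.44 to 9.67 (median 7.98). The difference was 1.23 ± 0.83 (SE), 0.71 without OCI-AML3 and 0.46 as the mean over the 3 SPRED1 probe sets. SPRY2 read 9.52 to 11.02 in the 4 lines against 4.14 to 10.75, a difference of 0.93 ± 0.72. It was 0.44 both with the log2 GAPDH ratio as a covariate and among arrays of ratio at most 2. DUSP4 split the cytokine lines, at 8.52 in OCI-AML3, 7.30 in OCI-AML2, 4.62 in F-36P and 4.44 in OCI-AML5, with a difference of -1.21 ± 0.97. SPRY4 was likewise split, at 10.31 in OCI-AML3 and 5.83 in OCI-AML5. Adjusted p-values of the 10 genes were 0.915 to 0.987 by limma. Of the 4 pathway lists, 0 genes passed, 1 was at an unadjusted p of 0.05, and the smallest p was that of PLAUR, the urokinase receptor, with 1.07 ± 0.44 (SE, adjusted p = 0.864 by limma). The other named genes of these lists were the adaptor GRB2 (0.59), SHOC2 (0.62), the kinases ARAF (-0.37) and MAPK3 (0.42), the phosphatases DUSP3 (0.81) and DUSP16 (1.27), and the ETS factor ETV1 (-0.89).

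PIM kinases are the targets of the inhibitors this series concerned, so each gene's slope on the level of PIM1, PIM2 and PIM3 was fitted over 30 units. None of the 10 genes passed for any of them by limma. Across all genes tested, 0.00647% passed for PIM1, 1.48% for PIM2 and 0.569% for PIM3. PIM1 was lowest in KMOE-2 (7.16) and highest in MOLM-16 (13.94). At an unadjusted p of 0.05, 4 of the 10 genes had a negative PIM1 slope and none a positive one, while 3.35% of all tested genes had a negative one. The slopes were -0.24 ± 0.093 (SE) for ETV5, -0.13 ± 0.054 for SPRED2, -0.24 ± 0.11 for SPRY2 and -0.22 ± 0.11 for SPRY4, in log2 per log2. Their unadjusted p-values were 0.0165, 0.0222, 0.0273 and 0.0494, and their adjusted p-values 0.587, 0.625, 0.649 and 0.699 by limma. The 4 slopes stayed negative when each unit was left out in turn.

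The lines at the ends of the PIM1 range separate for ETV5 and SPRY2 but overlap for SPRED2 and SPRY4. In KMOE-2, ME-1, SKM-1 and the mean of HL-60 and PLB-985, the units of lowest PIM1, ETV5 read 11.68, 10.10, 10.03 and 9.89. In MOLM-16, OCI-M1, FKH-1 and EOL-1, those of highest PIM1, it read 8.58, 9.26, 8.03 and 8.36, below each of the former. SPRY2 was 10.72, 10.75, 10.43 and 10.32 in the former and 9.39, 10.10, 8.38 and 8.28 in the latter. SPRED2 read 9.50 in KMOE-2 but 9.92 in OCI-M1, and SPRY4 read 7.21 in KMOE-2 but 7.37 in FKH-1, against the slope. PIM1 was 7.79 to 10.00 in RAS-listed units and 7.16 to 13.94 (median 12.08) in the others, so every RAS-listed unit is among the units of lower PIM1. Whether the slopes hold apart from the RAS grouping was not tested.

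For PIM2, EGR1 had the smallest p of the 10 genes, with a slope of 0.84 ± 0.37 (SE, p = 0.0282, adjusted p = 0.203 by limma), while 8.78% of all tested genes had a positive slope at an unadjusted p of 0.05. EGR1 read 9.96 in OCI-M1, 12.37 in HEL, 7.42 in FKH-1 and 12.97 in OCI-M2, the units of highest PIM2. It read 6.97 in GF-D8, 8.36 in GDM-1, 6.26 in SKM-1 and 8.60 in PL-21, the lowest. FKH-1 thus went against the slope. For PIM3, the smallest p-values were those of SPRY4, with a slope of 0.71 ± 0.41 (adjusted p = 0.35), and DUSP4, with 0.96 ± 0.56 (adjusted p = 0.355). PIM3 itself correlated with the log2 GAPDH ratio at r = 0.60 over 30 units, and the part of RNA quality in these slopes was not tested.

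**Figure D5:**
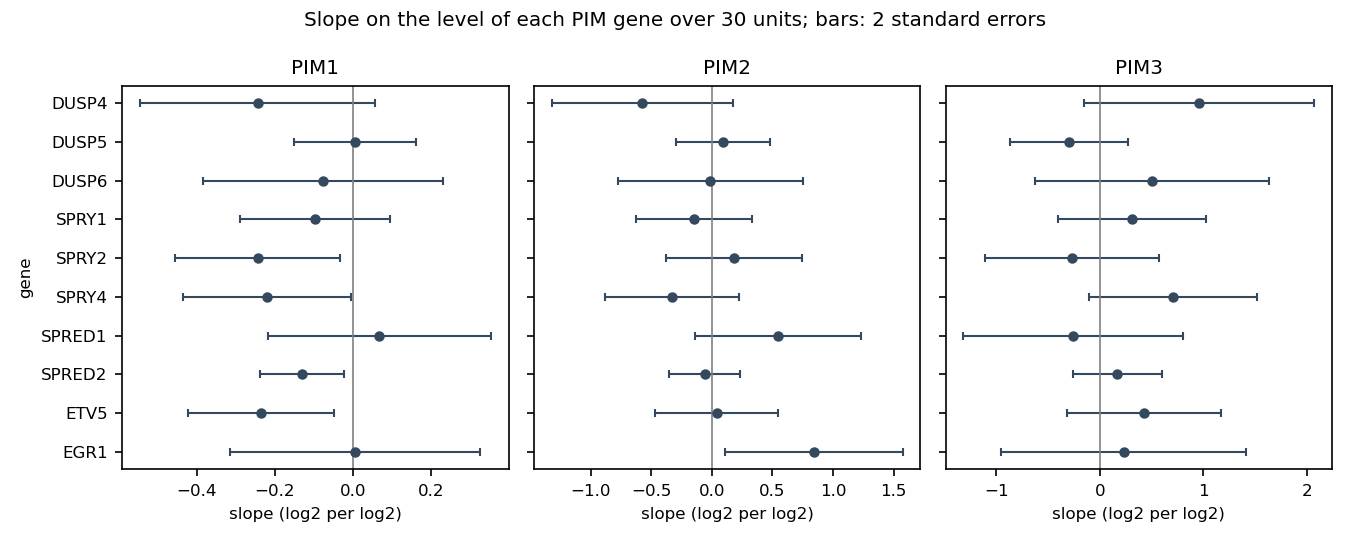
Slope of each gene's log2 level on the log2 level of PIM1 (left), PIM2 (middle) and PIM3 (right) over 30 units, with bars of 2 standard errors and a line at 0; the horizontal scales differ. For PIM1 the bars of ETV5, SPRED2, SPRY2 and SPRY4 lie below 0, and for PIM2 that of EGR1 lies above it.

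In the pathway lists 0 genes passed for any PIM gene by limma, with adjusted p of at least 0.053; at an unadjusted p of 0.05 there were 1100 of all tested genes for PIM1 (7.12%), 2996 for PIM2 (19.4%) and 2838 for PIM3 (18.4%). In the RAS, cascade, phosphatase and output lists of 13, 8, 11 and 15 genes, the counts at that level were 1 each for PIM1, then 4, 2, 1 and 2 for PIM2, and 4, 4, 1 and 0 for PIM3. The scaffold KSR1 had the smallest p for PIM1, with a slope of 0.30 ± 0.074 (SE, adjusted p = 0.284), and for PIM2, with 0.69 ± 0.19 (adjusted p = 0.053). JUN, an AP-1 factor, had a slope of -0.43 ± 0.13 on PIM1 (adjusted p = 0.406). Also named for PIM1 were the exchange factor SOS1 (0.17), RASA2 (-0.11), RPS6KA3 (0.11), DUSP16 (-0.39), DUSP1 (0.17) and PHLDA1 (0.20). For PIM2 they were RASGRP1 (-0.80), RASGRP2 (-0.57), MAP2K1 (0.28), DUSP8 (-0.43), DUSP7 (-0.24), ETV4 (0.55) and PHLDA1 (0.55). On PIM3, MAP2K1, which encodes MEK1, had -0.54 ± 0.17 (SE, adjusted p = 0.0869 by limma). RASGRP2 (0.90), LZTR1 (0.62), KSR1 (-0.76), DUSP8 (0.58), DUSP2 (0.64), FOSL1 (0.41) and JUN (0.67) were the others named.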

How the data were processed

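Per probe set and line, the deposited table gives 1 intensity (linear scale), made with Affymetrix Expression Console per the submitters' processing notes. Its version and the summarization method are not given in the sources used here. The submitters' growth protocol writes KG1 with a question mark, read here as KG-1A.

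Analysis used log2(signal + 16) of these values, keeping the authors' scaling, so folds are on that scale and understate changes of low signals. Of 54675 probe sets, 41097 had 1 gene symbol, 1801 had several, and the rest had none or were controls. In the RefSeq gene table, 54 of the first kind were not found. Genes were named only from probe sets with 1 symbol. Models were fitted over all tested genes with limma 3.58.1 in R 4.3.3 (functions lmFit and eBayes, trend option on), two-sided, with Benjamini-Hochberg adjustment and a threshold of 0.05. Each ± is a standard error unless marked SD. The fit was checked on simulated data. The number of arrays limits the precision.

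The 10 genes, the comparisons and the lists were chosen with earlier results of these data known. Named are the 10 genes, the 2 genes of smallest p in each pathway list where none passed, the 3 genes most like each of the 10, and PIM1, PIM2 and PIM3. Alternatives covered the pseudocount, scaling, filter, probe set rule, arrays of high GAPDH ratio, NOMO-1 and GF-D8, sublines, group definitions and leaving out each unit; another grouping of the lines is not reported here. The T cell, B cell and stromal and epithelial marker lists had mean levels of 5.74 to 8.14, 6.53 to 7.21 and 6.39 to 7.93 in RAS-listed units, and 5.51 to 9.41, 6.12 to 9.29 and 6.21 to 8.13 in the others.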

Additional observations from a re-analysis of the deposited data

Results flagged for a closer look

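SPRED2 was set apart in NOMO-1 among the 7 RAS-listed units. Its log2 level of 8.89 lay 1.29 below the next lowest, ML-2, and this gap was 0.66 of the whole range of the group. NOMO-1 is an array of high median signal and GAPDH ratio, and their part in this value was not tested. The SPRED2 value was the only one flagged in 20 groups examined (10 genes in the RAS-listed and the cytokine units). By the share of the range alone, some values in the cytokine units stood farther apart but were not flagged. SPRED1 read 10.28 in OCI-AML3 against 8.36 in the next line, OCI-AML5. ETV5 read 7.88 in OCI-AML5 against 9.82 in the next lowest, F-36P. The groups share OCI-AML3 and are not independent. A value like this can arise by chance in such a search, at a rate that is not shown here.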

How the results depend on the processing

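None of the 10 genes passed an adjusted p of 0.05 by limma in any of the alternatives tried. In the RAS comparison SPRY4 and SPRED2 stayed positive and DUSP6 and SPRY1 negative in all of them. The number of all genes that passed in it was 14 with a pseudocount of 64, 13 with quantile normalization, 1 with median centring, 11 with the mean over probe sets, 60 without NOMO-1 and GF-D8, 34 with 32 arrays as units and 38 without known kinase lines. It was 0 with GAPDH ratios of at most 2 and 0 with the ratio as a covariate, and 2 to 16 leaving out 1 unit. Differences that changed sign were ETV5 -0.0046 (pseudocount 1) and -0.0005 (quantile); DUSP4 -0.080 (pseudocount 64) and -0.063 (mean over probe sets), with SPRED1 at -0.0087; DUSP5 0.24 and EGR1 -0.57 (ratios at most 2). Without kinase lines the median was -0.091, DUSP4 -0.23, SPRED1 -0.061 and ETV5 -0.12. Leaving out 1 unit gave -0.17 to 0.59 for the median, -0.042 to 0.35 for DUSP4, -0.035 to 0.60 for SPRY2, -0.24 to 0.67 for SPRED1, -0.23 to 0.70 for ETV5 and -0.27 to 0.85 for EGR1.

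In the cytokine comparison the mean over probe sets gave a median of -0.15, SPRED2 -0.046 and ETV5 -0.25. ETV5 was -0.033 with ratios at most 2 (4 genes passed), -0.14 without NOMO-1 and GF-D8, and -0.001 with the alpha-MEM lines alone. With RPMI lines alone, 19 genes passed, SPRY1 was 0.003 and SPRY4 -1.19; there the lone F-36P is assumed to vary like the other lines. Leaving out 1 unit gave 0 to 1 genes, -0.22 to 0.55 for the median, -0.64 to 0.86 for SPRY4 and -0.15 to 0.65 for ETV5.

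For PIM1, 3 genes passed with quantile normalization, 2 with ratios at most 2, 2 without NOMO-1 and GF-D8, and 1 to 3 leaving out 1 unit. For PIM2 it was 1737 with quantile normalization, 120 with ratios at most 2, and 0 (without OCI-M1) to 404 (without KMOE-2), with 82 without F-36P, 125 without PL-21, 80 without OCI-M2, 81 without HEL and 93 without SET2. For PIM3 it was 1058, then 0, then 31 without NOMO-1 and GF-D8, and 3 (without NB-4) to 403 (without NOMO-1). It was 141 to 403 without MO7E, KG-1/KG-1A, OCI-AML5, ME-1 or NOMO-1, and 3 to 34 without F-36P, GDM-1, HL-60/PLB-985, ML-2, MOLM-16, NB-4, THP-1, OCI-M1, GF-D8, OCI-M2, SH-2, HEL or SET2. The cause of these changes was not tested. The PIM1 slopes of ETV5, SPRED2, SPRY2 and SPRY4 and the PIM2 slope of EGR1 kept their sign in every alternative. Probe sets near or below the filter level, such as DUSP4 and SPRY4 in many lines, have levels limited by background signal.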

Other observations

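The 6 units with the highest mean level of the erythroid genes (SET2, MOLM-16, OCI-M2, HEL, OCI-M1 and F-36P) were picked after the values were seen, so what follows is a description with no test. DUSP6, the cytoplasmic ERK phosphatase, read 9.36, 7.97, 10.84, 10.52, 10.50 and 8.65 in them, a median of 9.93 against 12.24 in the other units, which ran from 6.18 to 14.22. DUSP4 had a median of 5.03 in them (4.57 to 6.68) against 7.40 in the others (4.44 to 12). EGR1, the immediate early factor, lay on the other side, with a median of 10.77 (8.72 to 12.97) against 8.82. SPRED1 read 7.98 to 9.67 in them, with a median of 8.68 against 7.75. All ranges overlapped. The mean of the erythroid genes over the 30 units correlated with DUSP6 at r = -0.33, DUSP4 at -0.20 and EGR1 at 0.18. It correlated with SPRED1 at 0.41, SPRED2 at -0.44 and SPRY1 at 0.37. The mean of the megakaryocyte genes gave similar values for SPRED1 (0.40), SPRED2 (-0.48) and SPRY1 (0.36), so these are not particular to the erythroid genes. The mean of the monocyte genes correlated with SPRY1 at -0.54, SPRED1 at -0.46 and ETV5 at -0.43. That of the granulocyte genes correlated with SPRED1 at -0.53.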
